A study of Canis lupus familiaris with 22 samples.

Results

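The genes described here differed between the macula and the periphery of the dog eye in the same direction in both layers sampled, the retina and, beneath it, the choroid with its pigment epithelium (retinal pigment epithelium, RPE; together RPE/choroid). They were chosen by their measured regional differences. Levels are CPM, a gene's count scaled to the total count of its library, and d is the log2 ratio of macular to peripheral CPM in 1 dog, with 0.5 CPM added to both. Each gene had 8 values of d, from 4 dogs and 2 tissues. A gene entered if all 8 were at least 0.2, or all 8 at most -0.2, and its mean CPM was at least 2 in each tissue. Of 30951 genes in the files, 13009 passed the CPM minimum and 218 met the rule. The 200 with the largest smallest absolute d were kept, 170 higher and 30 lower in the macula. Because d chose the genes, all values of d below are a description. No test of them is used as support, and an outlier rule applied to their medians is described near the end.

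The 16 libraries used by the rule came from 4 mixed-breed dogs with no treatment named in the labels, and each dog gave macular and peripheral retina and macular and peripheral RPE/choroid from 1 eye. Dogs 18-2 (pitbull mix, estimated at 2 to 3 years) and 18-6 (mastiff mix, 3 to 5 years) were males sampled in the left eye. Dogs 18-7 (pitbull mix, 3 to 5 years) and 18-9 (boxer mix, 2 to 3 years) were females sampled in the right eye, so sex and side cannot be told apart. Another 6 libraries, not used by the rule, were macular RPE/choroid from both eyes of 3 other mixed-breed dogs: dog 1, a female labrador/pitbull mix of 3 to 5 years, dog 2, a male pitbull mix of 2 to 3 years, and dog 3, a male pitbull mix of 3 to 4 years. In each of these dogs the right eye was sampled with the retina on and the left eye after the retina had been taken off, so eye side and sampling cannot be told apart.

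The macula is the part of the retina used for the sharpest vision, with a high density of cone photoreceptors and of the ganglion cells that carry their signal. The RPE is a single layer of cells that renews the visual pigment, takes up shed photoreceptor tips and moves nutrients from the choroid, the vascular layer behind it. Retina and RPE derive from neighbouring sheets of the embryonic optic cup, while the choroid is largely vascular and connective tissue. A gene that differs by region in both layers therefore differs in tissues of unlike cell content.

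The files give Ensembl identifiers without names, and 0 of 30951 identifiers matched an entry of the RefSeq table used here, in which 0 genes carried an Ensembl identifier. Identifiers stand in place of names for this reason, with at most 2 shown in each direction of a comparison, and functions are not described. The labelled tissues could not be checked against cell type markers and were compared through library correlations. Total counts ran from 2690847 to 7845325 per library, and no 2 libraries were identical. Pearson correlations of log2 CPM across genes in the first 4 dogs ran from 0.942 to 0.980 within retina and from 0.859 to 0.971 within RPE/choroid. Across the tissues they ran from 0.531 to 0.664.

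More genes were shared between the tissues on the higher side than on the lower side. Before the limit of 200, 183 genes were higher in the macula of both tissues, which was 17.7% of the 1035 genes that met the rule as higher in retina and 15.6% of the 1175 that met it in RPE/choroid. Of all 13009 genes, 9.03% met it as higher in RPE/choroid and 7.96% in retina. The 35 genes lower in both were 8.05% of 435 in retina and 3.98% of 879 in RPE/choroid, where 6.76% of all genes met the rule as lower in RPE/choroid and 3.34% in retina, so the lower share was near that of all genes. In opposite directions, 173 genes had d above the threshold in retina and below its negative in RPE/choroid. They were 16.7% of the 1035 and 19.7% of the 879, beside 6.76% and 7.96% of all genes. The reverse held for 66 genes, 15.2% of the 435 and 5.62% of the 1175, beside 9.03% and 3.34%. Sharing in opposite directions was thus also above the share of all genes. The last gene kept by the limit had a smallest absolute d of 0.213 and the first left out had 0.210. At the d threshold, the genes nearest to it had a smallest absolute d of 0.2005 inside and 0.197 outside on the higher side, and of 0.202 inside and 0.198 outside on the lower side. A further 36 genes on the higher side and 7 on the lower side failed on the CPM minimum alone. The members nearest to that minimum had 2.06 CPM (higher) and 2.29 CPM (lower) in their less expressing tissue, and the nearest genes below it had 1.98 and 1.84 CPM.

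The gene with the largest smallest d was ENSCAFG00000010427, which was higher in the macula by more than 3-fold in all 8 pairs. In retina it measured 26.96, 26.6, 23.8 and 22.5 CPM in the macula of dogs 18-2, 18-6, 18-7 and 18-9, and 6.78, 7.93, 6.35 and 5.13 CPM in the periphery. In RPE/choroid it measured 51.6, 79.9, 46.9 and 82.5 CPM in the macula against 9.37, 17.1, 7.90 and 13.7 CPM in the periphery, in the same order of dogs. The macular and peripheral values did not overlap in either tissue. Mean d was 1.86 ± 0.15 in retina and 2.41 ± 0.16 in RPE/choroid (SD, n = 4 dogs). In the 6 macular RPE/choroid libraries of the other dogs, the level was 84.8 to 119 CPM, above every peripheral value of the first 4 dogs.

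ENSCAFG00000006923 was a gene mainly of the retina, where it measured 39.2, 40.0, 48.1 and 42.5 CPM in the macula against 14.8, 15.0, 18.4 and 11.3 CPM in the periphery of the same 4 dogs. In RPE/choroid it was near the lower limit of the counting, at 3.38, 1.75, 4.48 and 4.97 CPM in the macula against 0.815, 0, 0.574 and 0.609 CPM in the periphery. The 0 in dog 18-6 came from the shallowest library, in which no count allows a level of up to 1.11 CPM (3 counts, counting error only). Macular and peripheral values were separate in both tissues, and mean d was 1.498 ± 0.25 in retina and 2.06 ± 0.34 in RPE/choroid (SD, n = 4 dogs). The other 3 dogs had 0.687 to 2.90 CPM in macular RPE/choroid, a range that overlapped both the macular and the peripheral values of the first 4.

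Among the genes lower in the macula, ENSCAFG00000016417 had the largest smallest absolute d. It measured 4.71, 2.27, 3.19 and 0.322 CPM in macular retina and 10.3, 9.22, 14.7 and 3.14 CPM in peripheral retina of dogs 18-2, 18-6, 18-7 and 18-9. In RPE/choroid it was at or near 0 counts in the macula, with 0.804, 0, 0.722 and 0.142 CPM against 11.8, 3.34, 5.89 and 4.57 CPM in the periphery. Dog 18-9 was low in both regions of the retina, so the retinal values of macula and periphery overlapped between dogs while each dog kept the same order. Mean d was -1.76 ± 0.49 in retina and -2.89 ± 0.36 in RPE/choroid (SD, n = 4 dogs). In the macular RPE/choroid of the other dogs it had no count in 4 of 6 libraries, where the limit of 3 counts is 0.382 to 0.725 CPM, and 0.458 and 0.835 CPM in the remaining ones.

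ENSCAFG00000001791 was lower in the macula with little spread between dogs in retina. The values there were 113, 116, 109 and 116 CPM in the macula against 234, 231, 211 and 205 CPM in the periphery. The difference was larger in RPE/choroid, with 20.7, 8.75, 14.6 and 10.2 CPM in the macula against 97.6, 78.4, 65.1 and 119 CPM in the periphery. No macular value overlapped a peripheral one in either tissue. Mean d was -0.95 ± 0.10 in retina and -2.73 ± 0.67 in RPE/choroid (SD, n = 4 dogs). The 6 libraries of the other dogs lay between 17.8 and 37.8 CPM, below every peripheral RPE/choroid value of the first set.

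**Figure D1:**
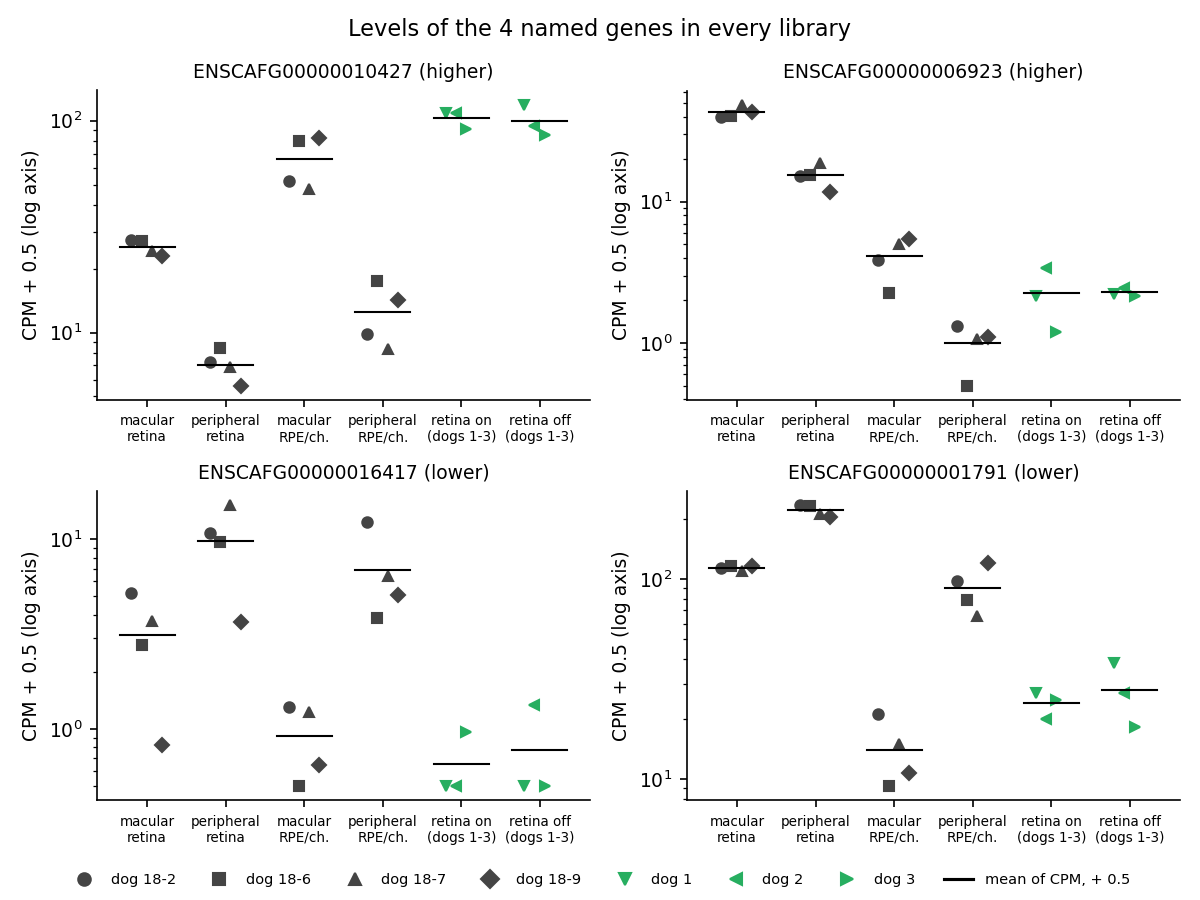
CPM + 0.5 on a log axis for the 2 higher and 2 lower genes with the largest smallest absolute d, by group (horizontal axis); each symbol is 1 library, its shape the dog, and the line marks the mean. Grey symbols are the 4 dogs used by the rule and green symbols the 3 dogs that were not; ENSCAFG00000010427 stood at 84.8 to 119 CPM in the latter, against 7.90 to 17.1 CPM in peripheral RPE/choroid.

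Over all 170 higher genes, the regional difference was larger in RPE/choroid than in retina. Their median of mean d was 0.70 in retina (quartiles 0.55 and 0.98) and 0.92 in RPE/choroid (0.64 and 1.40). Over the 13009 genes past the CPM minimum it was -0.02 in retina (quartiles -0.12 and 0.12) and 0.04 in RPE/choroid (-0.14 and 0.23). The spread over all genes was thus wider in RPE/choroid too. The mean d was the larger one in RPE/choroid for 114 of 170 genes, and the same count over all genes is not given here. In 55 it was larger there in each of the 4 dogs, and in 14 it was larger in retina in each dog. A mean d of at least 2-fold was reached by 41 genes in retina, 71 in RPE/choroid and 25 in both, and 5 genes were at least 2-fold higher in all 8 pairs. Sizes in the 2 tissues went together loosely, with a Spearman rho of 0.35 between the absolute mean d of the tissues across the 170 genes, which are not independent replicates.

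The 30 lower genes had medians of mean d of -0.74 in retina (quartiles -0.96 and -0.46) and -1.14 in RPE/choroid (-1.72 and -0.69). A mean d of at least 2-fold was reached by 6 of them in retina, 16 in RPE/choroid and 2 in both. ENSCAFG00000016417 was the single gene at least 2-fold lower in all 8 pairs. The same Spearman rho was 0.05 across the 30 genes.

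**Figure D2:**
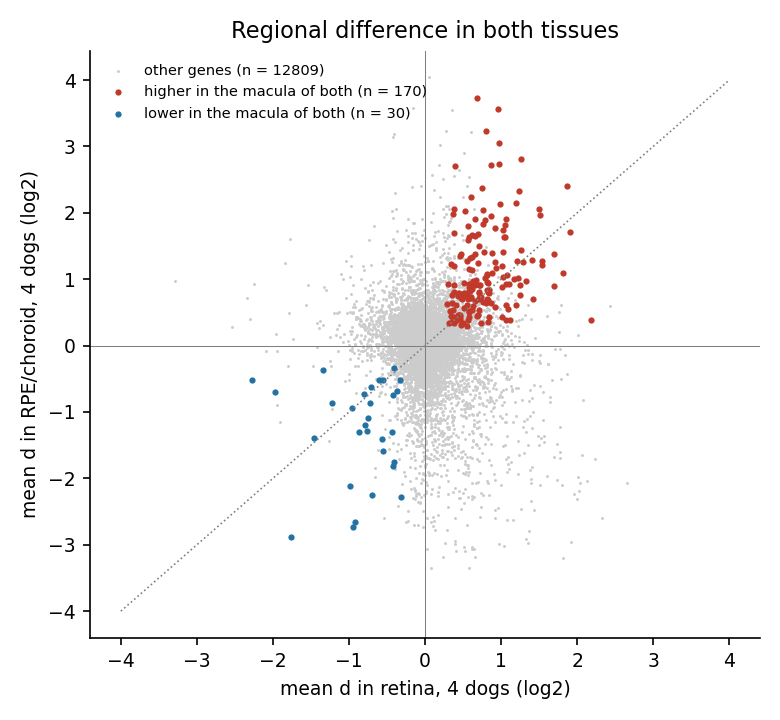
Mean d over 4 dogs in retina (horizontal axis) against RPE/choroid (vertical axis), both in log2 units, for the 13009 genes past the CPM minimum; red points are the 170 higher genes, blue points the 30 lower genes, grey points all others, and the dotted line marks equal values. More members lie farther from 0 in RPE/choroid than in retina, in 133 of 200 genes, and the same count over all genes is not given here.

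The dogs differed most in RPE/choroid. The median d of the higher genes was 0.86, 0.64, 0.63 and 0.60 in the retina of dogs 18-2, 18-6, 18-7 and 18-9, and 0.94, 1.20, 0.62 and 0.87 in their RPE/choroid. For the lower genes it was -0.63, -0.67, -0.79 and -0.63 in retina and -0.73, -1.21, -0.50 and -1.62 in RPE/choroid. Dogs 18-6 and 18-9 thus had the largest absolute medians in RPE/choroid for the lower genes, and dog 18-7 the smallest. In 17 of the 30 lower genes (56.7%), both of these dogs had a larger absolute d in RPE/choroid than either of the others, and the same held for 552 of the 844 genes (65.4%) that met the rule as lower in RPE/choroid but not as lower in retina, 173 of which were the genes of opposite direction in retina. Over all 13009 genes the median d was 0.13 in the RPE/choroid of dog 18-6 (0.07 with TMM library sizes) and between -0.05 and 0.04 in every other pair, and d of that pair is to be read against this shift. The smallest absolute d of a gene was most often that of RPE/choroid in dog 18-7 for the higher genes (40 of 170), and that of retina in dog 18-2 for the lower genes (9 of 30).

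**Figure D3:**
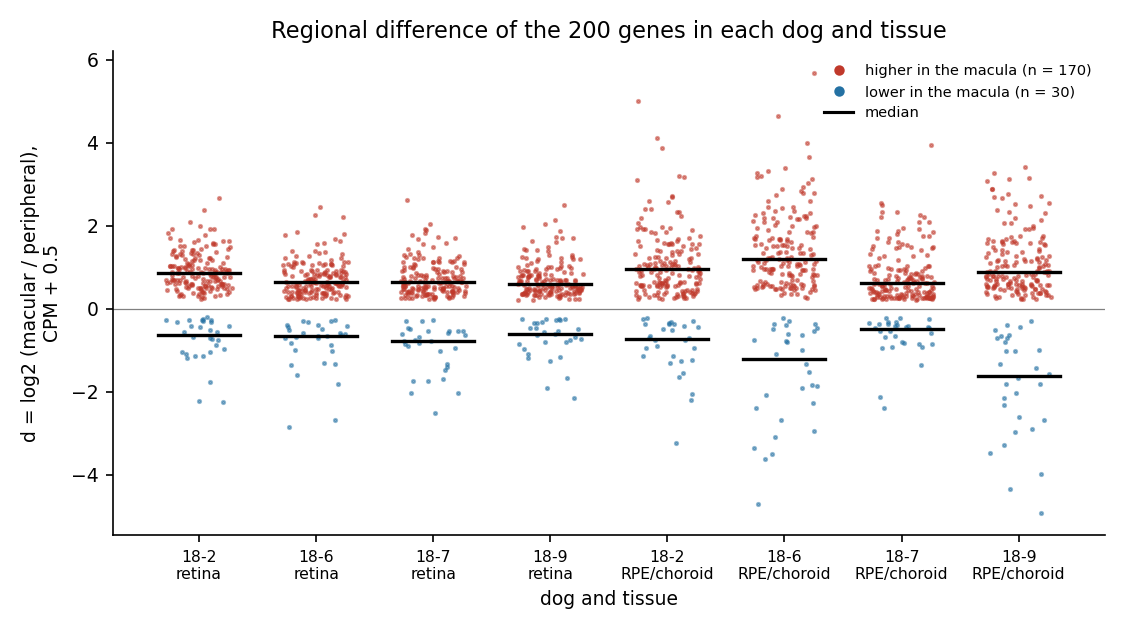
The d of each of the 200 genes (points, log2 units on the vertical axis) in each dog and tissue (horizontal axis), red for the 170 higher and blue for the 30 lower genes, with black lines at the medians. The values leave a gap around 0 because the rule removed it; the medians of the lower genes reach -1.21 and -1.62 in the RPE/choroid of dogs 18-6 and 18-9.

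The level of the members, averaged over both regions of a dog, also varied between dogs. The median SD of this log2 level over the 4 dogs was 0.19 for higher and 0.27 for lower genes in retina, beside 0.13 over the 13009 genes. In RPE/choroid it was 0.29 and 0.46, beside 0.19. Counts behind many members were small, with under 10 counts in at least 1 of the 16 libraries for 59 of 170 higher and 7 of 30 lower genes. The median of a gene's smallest count was 21.5 for higher and 19 for lower genes, so the d of the weaker genes rests on few counts.

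The regional comparisons were also fitted across all genes with edgeR, with the dog as a block, and their calls are given as context because the rule used the same contrast. In retina, 161 of 168 higher genes tested were called at an adjusted p under 0.05, where 12.3% of all 14392 genes tested were called higher in the macula, and 28 of 30 lower genes were called, where 6.63% were called lower. In RPE/choroid, 132 of 170 higher genes were called, where 8.19% of all 14352 were called higher, and 17 of 30 lower genes, where 5.26% were called lower. With 3 dogs in place of 4, fewer higher members were called in RPE/choroid in every fit. Fewer lower members were called there unless dog 18-7 was the one left out. Leaving out dog 18-2 gave 15 higher and 2 lower genes, leaving out dog 18-6 gave 42 and 3, and leaving out dog 18-9 gave 31 and 4. When dog 18-7 was left out, 122 and 21 were called. The share of all genes called changed too. It fell to 0.433% higher and 0.0756% lower without dog 18-2, to 1.84% and 0.635% without dog 18-6, and to 1.35% and 0.331% without dog 18-9. Without dog 18-7 it rose to 9.08% and 9.85%, so the larger count of lower members there went with more calls among all genes. The median log2 fold change of the higher members stayed between 0.81 and 0.94 over the 4 fits. Without pairing by dog, 56 higher and 3 lower members were called in RPE/choroid, and 15 lower members in retina. The share of all genes called higher in RPE/choroid then fell to 2.04%, and the share called lower in retina to 1.82%. The share called lower in RPE/choroid fell to 0.39%.

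Whether the members belonged to one of the tissues was asked with another contrast, retina against RPE/choroid within each dog and region, which the rule did not use. Of the 170 higher genes, 65 (38.2%) had the higher level in retina and 82 (48.2%) in RPE/choroid (edgeR, 8 pairs of libraries, adjusted p under 0.05). Over all 14664 genes tested these shares were 36.6% and 36.8%, and over the 13007 of them past the CPM minimum they were 34.5% and 36.3%. Of the 30 lower genes, 9 (30%) were called for retina and 11 (36.7%) for RPE/choroid. The higher genes were thus spread over both tissues, and their median log2 fold change of retina over RPE/choroid was -0.37, beside -0.01 over the genes past the CPM minimum. For the lower genes it was 0.03.

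The size of the tissue difference was often large. Among higher genes, 31 (18.2%) passed the test with a 4-fold or larger excess in retina and 28 (16.5%) with one in RPE/choroid, where 5.44% and 8.80% of the 13007 genes were. Under 2-fold between tissues were 48 higher genes (28.2%), 16 lower genes (53.3%) and 69.7% of the 13007. Whether these shares differ from the rest of the genes was not tested. The 31 retina-preferring higher genes had a median of mean d of 0.62 in retina and 1.41 in RPE/choroid, and the 28 that preferred RPE/choroid had 0.76 and 0.79.

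**Figure D4:**
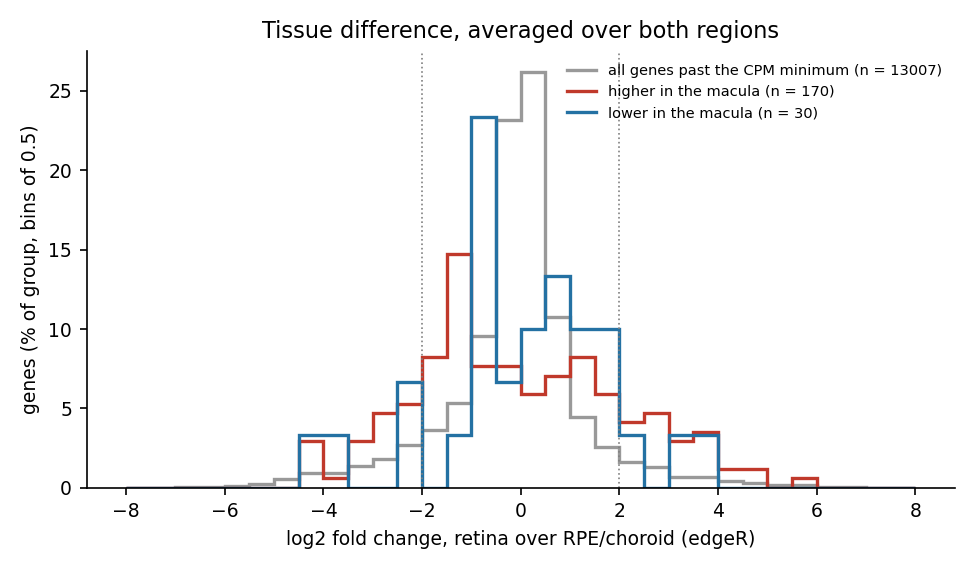
Share of genes (vertical axis, percent of each group, bins of 0.5) by log2 fold change of retina over RPE/choroid (horizontal axis), for the 13007 genes tested past the CPM minimum (grey), the 170 higher (red) and the 30 lower genes (blue); dotted lines mark 4-fold. The grey curve peaks near 0, while 18.2% and 16.5% of the higher genes lie beyond the right and left dotted line and pass the test.

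The members with the largest tissue difference show both kinds. ENSCAFG00000005058, a higher gene, measured 166, 221, 213 and 217 CPM in macular retina and 73.5, 116, 138 and 129 CPM in peripheral retina of dogs 18-2, 18-6, 18-7 and 18-9. In RPE/choroid it measured 3.38, 2.41, 2.74 and 2.98 CPM in the macula against 2.04, 1.11, 1.87 and 1.68 CPM in the periphery. These values rest on 3 to 21 counts per library. The regional edgeR fit in RPE/choroid did not pass (adjusted p = 0.0949). Retina lay above RPE/choroid in all 8 pairs, by 5.99 ± 0.15 on the log2 scale (SE, adjusted p = 3.19e-09, edgeR). The macular RPE/choroid of the other 3 dogs had less of it, from 0 to 2.39 CPM, where no count in the libraries of dog 2 allows up to 0.725 and 0.835 CPM.

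ENSCAFG00000004944, also a higher gene, was the next in retina. It measured 144, 155, 177 and 169 CPM in macular and 74.9, 114, 132 and 107 CPM in peripheral retina. In RPE/choroid the values were 8.85, 5.25, 4.76 and 9.09 CPM in the macula against 3.06, 1.49, 2.15 and 3.05 CPM in the periphery. The regional step was thus relatively larger in the tissue where the gene was low, and the log2 fold change between tissues was 4.801 ± 0.23 (SE, adjusted p = 5.59e-08, edgeR, 8 of 8 pairs).

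On the RPE/choroid side, ENSCAFG00000000334 was a higher gene with 96.7, 73.3, 63.0 and 103 CPM in macular and 74.6, 46.8, 54.1 and 82.1 CPM in peripheral RPE/choroid. In retina it measured 6.04, 5.77, 8.50 and 8.84 CPM in the macula against 1.96, 0.858, 0.977 and 1.16 CPM in the periphery. Here the macular and peripheral values overlapped between dogs in RPE/choroid and were separate in retina. The log2 fold change of retina over RPE/choroid was -4.42 ± 0.38 (SE, adjusted p = 2.62e-06, edgeR, 8 of 8 pairs).

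ENSCAFG00000030997 was a lower gene of the RPE/choroid. It measured 67.2, 147, 103 and 98.4 CPM in macular and 150, 204, 132 and 142 CPM in peripheral RPE/choroid, and 6.63, 3.71, 4.40 and 4.34 CPM in macular and 9.27, 6.43, 6.35 and 10.4 CPM in peripheral retina. Values of macula and periphery overlapped between dogs in both tissues, although each dog was lower in the macula. The tissue fold change was -4.41 ± 0.21 on the log2 scale (SE, adjusted p = 6.18e-08, edgeR, 8 of 8 pairs).

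RNA of one layer can be carried into samples of the other, and the level of each layer's genes in the other was measured with lists of 200 genes, none of them a member. The lists hold the genes with the largest tissue fold change in these libraries and are not independent of them. The retina list stood in RPE/choroid at 0.431% (macula) and 0.521% (periphery) of its level in retina. The 31 higher genes that preferred retina stood there at a median of 15.8% (1.41% to 35.5%) and 7.33% (1.47% to 26.2%) of their own retinal level. Each was above the share of the list. The list genes were picked for a low share, while members had to reach a mean of 2 CPM in each tissue. Selection alone can thus give this order, and carry-over was not tested. The summed retina list in RPE/choroid changed from periphery to macula by 0.87, 0.14, -0.92 and -0.13 on the log2 scale in dogs 18-2, 18-6, 18-7 and 18-9, without a common direction.

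The RPE/choroid list stood in retina at 1.08% (macula) and 1.62% (periphery) of its own level. The 28 higher genes that preferred RPE/choroid stood there at a median of 15.2% (5.54% to 30.4%) and 16.4% (1.92% to 55.7%), with the same limit from selection. In retina this list changed from periphery to macula by -0.09, 0.51, -0.14 and -1.06 on the log2 scale. In their own tissue both lists were higher in the macula of every dog, by 0.17 to 0.38 for the retina list and 0.18 to 0.45 for the RPE/choroid list. The part of this difference in the d of the members was not tested. In bulk tissue, more cells of a type and more RNA per cell cannot be told apart.

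The other 3 dogs gave macular RPE/choroid alone, so the regional difference was not measured in them. Their level can be set beside the first 4 dogs by the midpoint, in log2 CPM, between mean macular and mean peripheral RPE/choroid of those dogs. The mean of the 6 libraries lay above the midpoint, on the macular side, for 108 of 170 higher genes (63.5%), where 52.8% of all 13009 genes lay above it. It lay below, again on the macular side, for 22 of 30 lower genes (73.3%), where 47.2% of all genes did. With 1 of these dogs left out, the shares ran from 59.4% to 64.7% and from 63.3% to 80%. Genes that met the rule in RPE/choroid but not in the same direction in retina gave 55.6% of 992 on the higher and 67.1% of 844 on the lower side. The median distance from the midpoint was 0.21 for higher and -0.41 for lower genes, beside 0.46 and -0.57 for the macula of the first 4 dogs. For the 992 and 844 genes it was 0.09 and -0.28, beside 0.30 and -0.43. Their regional difference in the first 4 dogs was thus smaller, and their shares are not like for like with those of the members. The sets differ in dogs and sampling, which cannot be told apart from a difference in level, and no test was made.

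Between eyes sampled with the retina on and off, no member passed the test. Of 190 members with enough counts, 0 were called by edgeR with the dog as a block (3 dogs, adjusted p under 0.05), as were 0% of all 14076 genes. At an unadjusted p under 0.05 there was 1 member among 84 genes. DESeq2 also called 0 genes, with 62 at an unadjusted p under 0.05. The differences of the 3 dogs did not go the same way, as given below. The count of 0 therefore does not show that sampling had no effect on the members. The median log2 fold change of off over on was 0.07 for higher and 0.10 for lower members.

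Within a dog each eye was 1 library, so the values by dog have no replicate and were not tested. The median log2 ratio of the retina-off to the retina-on eye was 0.29, -0.33 and 0.33 in dogs 1, 2 and 3 for the higher genes, beside 0.02, -0.07 and 0.07 over all 13009 genes. The higher genes were higher in the retina-off eye in 144 of 170 in dog 1, 27 in dog 2 and 127 in dog 3, where 54.2%, 42.2% and 54.4% of all genes were. For the lower genes the medians were 0.06, 0.60 and -0.35, and 16, 23 and 14 of 30 were higher in the retina-off eye. In dog 3 the lower genes were thus close to evenly split. The pattern of a lower value in dog 2 and a higher value in dog 3 was met by 62.4% of the higher genes, 23.3% of the lower genes and 41.1% of all genes, and the reverse by 4.12%, 53.3% and 28.9%.

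These shares were close to those of the genes that met the rule in RPE/choroid but not in the same direction in retina. Of the 992 on the higher side, 65.6% were lower off than on in dog 2 and higher in dog 3, and of the 844 on the lower side 58.9% had the reverse. The pattern was thus shared with other genes of regional RPE/choroid expression. The summed retina list was 749.9 CPM on and 123.3 CPM off in dog 1, 27.5 and 128 CPM in dog 2, and 48.1 and 26.6 CPM in dog 3, so that in dog 2 the eye labelled as sampled after removal of the retina held more of it. The RPE/choroid list differed by 0.20, -0.21 and 0.07 on the log2 scale, off over on, in the same order of dogs and with the same signs as the higher genes. The part of either list in the members' differences was not tested.

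**Figure D5:**
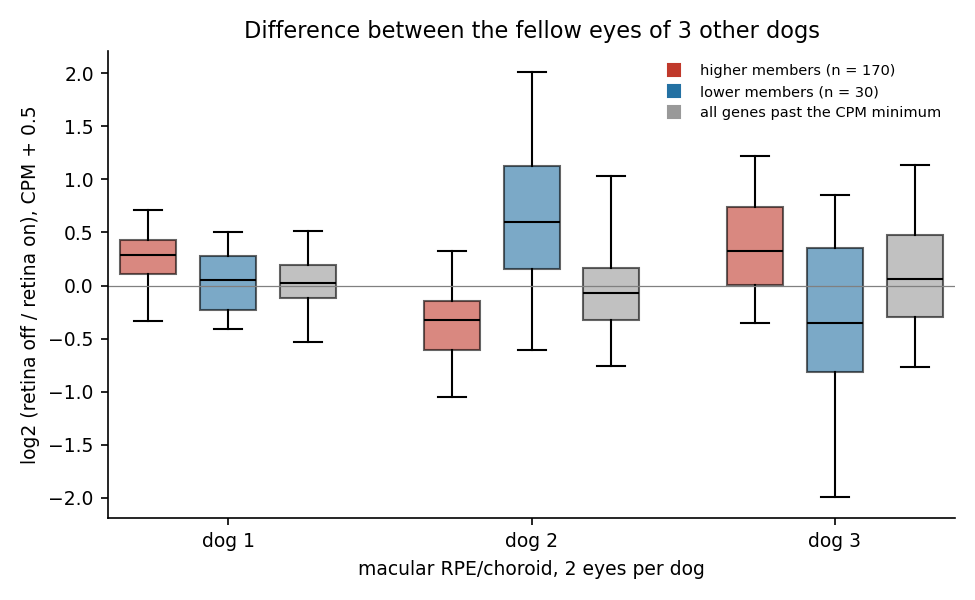
Log2 ratio of the retina-off to the retina-on eye (vertical axis, CPM + 0.5) in macular RPE/choroid of dogs 1, 2 and 3 (horizontal axis), for the higher genes (red), the lower genes (blue) and all genes past the CPM minimum (grey). Boxes show quartiles with the median as a line, and whiskers the 5th to 95th percentile; the red medians are 0.29, -0.33 and 0.33, and the blue ones 0.06, 0.60 and -0.35.

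ENSCAFG00000020124, singled out after its values had been seen because its difference between fellow eyes varied most among the members, was either abundant or low in macular RPE/choroid. In the first set it measured 96.0, 3.94, 133 and 3.83 CPM there in dogs 18-2, 18-6, 18-7 and 18-9, against 153, 116, 167 and 131 CPM in peripheral RPE/choroid. In the second set it measured 115 and 94.6 CPM in the retina-on and retina-off eye of dog 1, 5.56 and 166 CPM in dog 2, and 82.4 and 4.84 CPM in dog 3. Low values thus occurred in 4 of 10 macular RPE/choroid libraries, in eyes of either sampling, and in none of the 4 peripheral ones. In retina the gene did not have this split, with 45.8, 40.0, 18.1 and 48.6 CPM in the macula against 102, 61.3, 49.0 and 70.5 CPM in the periphery. Dogs 18-6 and 18-9, with low macular RPE/choroid values, also had the largest absolute median d of the lower genes in that tissue. This gene is itself a lower gene, so the patterns are not independent.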

How the data were processed

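Total RNA of 22 libraries from 7 dogs was made into directional libraries, per the labels' protocols. The deposited files hold raw read counts, as whole numbers, for 30951 identifiers. Tools listed by the submitters' processing notes are featureCounts 2.0.0, HISAT2 2.1.0, Trimmomatic 0.39, SAMtools and FastQC 0.11.8. The sources used here do not give the genome build, the annotation, the strand setting or how duplicates were handled, so the values of overlapping and antisense genes are uncertain.

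From the counts, CPM was computed with library totals and members were selected by the rule given at the start. The members and lists were chosen with earlier results of these data known. Tests ran across all genes with edgeR 4.0.16 in R 4.3.3 (two-sided quasi-likelihood test, TMM, filterByExpr by group) with Benjamini-Hochberg adjustment over all genes tested and a threshold of 0.05. Regional fits used the dog as a block, the tissue fit each dog and region (8 blocks), and the fellow-eye fit the dog. In the tissue fit, blocks of the same dog were treated as independent. The block follows from the labels, since libraries of a dog come from 1 animal. Deviations of same-dog libraries correlated at 0.37 to 0.64 across genes, and at -0.13 between the eyes of dog 2. SE was taken from the log2 fold change and the F statistic. Alternatives were DESeq2 1.42.0, RLE normalization, no low-count filter, no block and each dog left out, and for the rule other scalings, pseudocounts, CPM minimums and thresholds. The fits were tested on simulated data.

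Named were the genes with the largest smallest absolute d and, for the tissue contrast, the members with the largest fold change of 1 sign in all 8 pairs, 2 in each direction. The rule had allowed more genes with symbols. Gene lists and cell type markers written down by symbol could not be applied, since the identifiers matched no symbol.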

Additional observations from a re-analysis of the deposited data

Results flagged for a closer look

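The median d of the 170 higher genes in retina was 0.86 in dog 18-2, apart from the other 3 dogs at 0.60 to 0.64, and its gap to the next dog was most of the range of the 4 dogs. Since d chose the genes, this is a description and no test of that dog. The retina list was also raised most in the macular retina of this dog, by 0.38 on the log2 scale against 0.17 to 0.21 in the others, and the part of this in the higher median was not tested.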

How the results depend on the processing

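Before the limit of 200, the rule gave 183 higher and 35 lower genes. With a d threshold of 0.1 it gave 337 and 91, and with 0.3 it gave 101 and 15. With each dog left out it gave 233 to 324 higher and 45 to 60 lower genes, since fewer values then have to pass. Of the 170 and 30 members, 169 and 28 met the rule with TMM library sizes and 166 and 28 with DESeq2 size factors. Other scalings, pseudocounts and CPM minimums kept the counts within 1.5 times. Without the replicate block, edgeR called 56 in place of 132 higher members in RPE/choroid, 3 in place of 17 lower members there, and 15 in place of 28 lower members in retina. With each dog left out, these counts in RPE/choroid ran from 15 to 122 and from 2 to 21, and the cause was not tested. The shares of all genes called also changed in these fits, as given above. The block moved no other count of called members by more than 1.5 times. The tissue counts and the count of 0 between fellow eyes stayed within that range under every alternative run, with 62 to 68 higher genes called for retina and 79 to 83 for RPE/choroid. Direction was followed for the 4 genes named by d in the regional and tissue fits and for the 4 named by tissue in the tissue fit, and none reversed where it was tested. ENSCAFG00000006923 did not pass the low-count filter in RPE/choroid without dog 18-7 or 18-9. ENSCAFG00000016417 passed the tissue test with DESeq2 and without dog 18-9, at log2 fold changes of 1.27 and 1.35. In RPE/choroid, ENSCAFG00000006923 and ENSCAFG00000016417 lost their regional call without dog 18-2, at 3.05 and -3.93, and the latter lost its call in retina without the block, at -1.81.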

Other observations

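In every library the gene with the most counts held a small share of them, between 0.0933% and 0.153%. Whether duplicate reads were removed or high counts were limited before deposit is not given in the sources used here, and either would change the CPM and fold changes of abundant genes. The 36 higher-side and 7 lower-side genes that failed on the CPM minimum alone had a median of 1.14 and 1.38 CPM in their less expressing tissue, and the 5 with the largest smallest d on the higher side had a smallest d of 0.66 to 0.96.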
